A study of Homo sapiens with 8 samples.

Results

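Enzymes that make, salvage or destroy deoxynucleotides, the building blocks of DNA, were followed in MDA-MB-231 cells after exposure to a plant preparation. The named genes were RRM1, RRM2, TYMS, TK1, DUT, DTYMK, DCK, CTPS1 and SAMHD1, and each was read from the array row that carries its symbol alone. A row was found for 8 of the 9, among 22109 genes tested. DCK, the deoxycytidine kinase gene, shares its row with a neighbouring gene and was not analysed here. In RefSeq's GRCh38.p14 annotation the 8 measured genes span chr11:4094685-4138932 (RRM1), chr2:10122568-10211010 (RRM2), chr18:657653-673578 (TYMS), chr17:78174079-78187204 (TK1), chr15:48331095-48343373 (DUT), chr2:241675747-241686815 (DTYMK), chr1:40979696-41012565 (CTPS1) and chr20:36889773-36951708 (SAMHD1). MDA-MB-231 is an established triple-negative breast cancer line from a pleural effusion. The 8 arrays came from 3 untreated controls, 3 low-dose samples and 2 high-dose samples, all taken at 24 h. The titles and the treatment protocol name the agent as a crude ethanol extract of wild yam (Dioscorea villosa) root at 15 µg/mL (low) and 30 µg/mL (high), both called sublethal. Against this, the low-dose samples' source name and treatment list 128 µg/mL of a Boswellia serrata extract, and those of the high-dose samples list 46 µg/mL of 3-O-acetyl-β-boswellic acid. The arrays fall into the same groups either way, but what the treated cells received, and whether the groups form a dose series, is not settled. The controls are labelled as having had no treatment, and no label says that they had the ethanol vehicle. No label says that replicates were separate cultures, so p-values measure only the spread between these samples, which may be technical.

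A dividing cell must make deoxynucleotides in step with DNA replication. Ribonucleotide reductase, built from the large subunit RRM1 and the small subunit RRM2, turns ribonucleotides into deoxyribonucleotides and is the rate-limiting enzyme of the pathway. TYMS methylates dUMP to dTMP, DUT hydrolyses dUTP so that uracil is kept out of DNA and dUMP is supplied to TYMS, TK1 salvages thymidine, and DTYMK phosphorylates dTMP on the way to dTTP. CTPS1 makes CTP, the source of the cytosine nucleotides. SAMHD1 works the other way and breaks deoxynucleoside triphosphates down. RRM2, TYMS and TK1 are textbook genes of the G1/S transition, driven by E2F factors, and TYMS and RRM2 are targets of antimetabolite drugs.

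The start-site regions of the 4 genes called at the low dose, and of DUT, are shown because E2F and NF-Y factors are known to act at promoters of this kind. Each is the 130 bases before a RefSeq start site (GRCh38.p14), in the direction of transcription. Matches to the E2F and NF-Y strings given below are in capitals. Where a gene has several start-site windows, defined below, the one with the most E2F and NF-Y matches is shown (RRM2, TK1 and DUT). The other TK1 and DUT windows held no such match, and the other RRM2 window held 1. RRM1 was read from chr11:4094555-4094684 (plus strand), RRM2 from chr2:10122609-10122738 (plus), TYMS from chr18:657523-657652 (plus), TK1 from chr17:78187053-78187182 (minus) and DUT from chr15:48332067-48332196 (plus).
RRM1: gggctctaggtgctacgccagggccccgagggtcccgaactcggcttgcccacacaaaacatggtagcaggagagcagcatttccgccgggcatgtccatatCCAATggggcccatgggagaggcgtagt
RRM2: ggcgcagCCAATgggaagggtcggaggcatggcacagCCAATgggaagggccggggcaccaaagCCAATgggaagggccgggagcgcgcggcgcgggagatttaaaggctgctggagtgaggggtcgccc
TYMS: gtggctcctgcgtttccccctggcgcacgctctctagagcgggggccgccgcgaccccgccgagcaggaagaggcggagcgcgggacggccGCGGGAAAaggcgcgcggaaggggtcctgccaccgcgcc
TK1: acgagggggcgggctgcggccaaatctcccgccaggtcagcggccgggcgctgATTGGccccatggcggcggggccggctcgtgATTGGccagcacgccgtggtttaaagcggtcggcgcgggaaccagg
DUT: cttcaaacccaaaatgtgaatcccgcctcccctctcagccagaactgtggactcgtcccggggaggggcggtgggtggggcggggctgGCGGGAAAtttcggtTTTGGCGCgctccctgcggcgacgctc
In RRM2 the capitals mark 3 copies of the NF-Y box CCAAT, in TK1 2 copies of it on the other strand (ATTGG) and in RRM1 1 copy. In TYMS they mark the E2F string TTTCCCGC on the other strand, and in DUT that string together with TTTGGCGC. The DUT stretch also holds a match to the cell cycle string TTTGAA, on the other strand near its start, which is left in lower case.

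All 9 named genes have at least 1 RefSeq window of 250 bases before to 50 bases after a start site. The E2F strings TTTCCCGC, TTTCGCGC, TTTGCCGC and TTTGGCGC, searched on both strands, were found in a window of 3 of the 9 (TYMS, DUT and DCK), against 3.99% of 27305 genes. CCAAT on either strand was found for 5 of the 9 (RRM1, RRM2, TK1, DTYMK and SAMHD1), against 39.7% of genes, and the cell cycle string TTTGAA for 2 (RRM1 and DUT), against 18.2%. Several genes have more than 1 window, and a match of letters is a description of the sequence, not a measured binding site.

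The deposited log2 values were compared as they stand, and with 8 arrays the precision is limited. Correlations between arrays of the same group were 0.972 to 0.994 over genes. Control 3 and low 3 stood apart from the other arrays of their groups, with lower upper quartiles of the log2 values. These were 4.73 against 4.92 and 4.92 in the controls, and 4.54 against 4.94 and 4.90 at the low dose. High 2 (4.54) lay below high 1 (4.80), but 2 arrays cannot show which of them stands apart. Results are therefore also given without single arrays where that changes a call. Most of the line's defining genes fitted its label, with EPCAM as the exception. VIM, CD44, AXL, ZEB1 and SNAI2 lay between 5.47 and 9.67 on all arrays, and CDH1, the epithelial cadherin, averaged 2.93 in the high-dose, 3.29 in the low-dose and 3.01 in the control arrays. ESR1, PGR and GATA3, listed as low in this line, averaged at most 3.17 in any group. EPCAM, an epithelial adhesion gene on the same list, went against it, at 4.57 in the high-dose, 4.93 in the low-dose and 5.16 in the control arrays. The 4 measured leukocyte markers (PTPRC, CD3E, CD14 and LYZ), relevant because SAMHD1 is abundant in myeloid cells, stayed between 0.94 and 2.63, and their summed log2 level was 6.47 to 6.62 in high-dose, 6.56 to 7.04 in low-dose and 6.06 to 6.25 in control arrays. The sum over 4 fibroblast markers was 8.03 to 8.66 in high-dose, 9.11 to 9.72 in low-dose and 8.69 to 9.81 in control arrays, and that over 4 endothelial markers 7.86 to 8.79, 8.62 to 8.92 and 8.03 to 9.60. Of these 12 markers, COL1A1 alone was called, at the low dose (0.76 ± 0.16, adjusted p = 0.0262 by limma). Their part in the results below was not tested.

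At the low dose, transcripts of the core of the pathway fell. Both ribonucleotide reductase subunits, thymidylate synthase and thymidine kinase 1 were each about 1.82-fold to 2.08-fold below control. The 8 genes had a median log2 difference of -0.81, against -0.04 over all genes tested. All of them but DUT passed a filter on dim genes (log2 4 or above on at least 2 arrays). So did 8309 of all genes, whose median was -0.08. Of the 8, 4 were called lower (limma, adjusted p under 0.05 over all 22109 genes) and none higher, where 1.81% of all genes were called lower and 1.19% higher (3.00% together). With only the 8309 genes tested, 489 were called lower and 329 higher, and 5 of the 7 enzymes among them were called lower. In 6 of the 8 every low-dose array lay below every control array, as in 13.0% of all genes, and in none did every low-dose array lie above, as in 7.03%. At an unadjusted p under 0.05, 6 of the 8 were lower and none higher, against 8.77% and 5.38% of all genes. The point estimates of the other 4 genes were also below 0, but they did not pass the test. Over all 22109 genes, 12700 had estimates below 0.

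**Figure D1:**
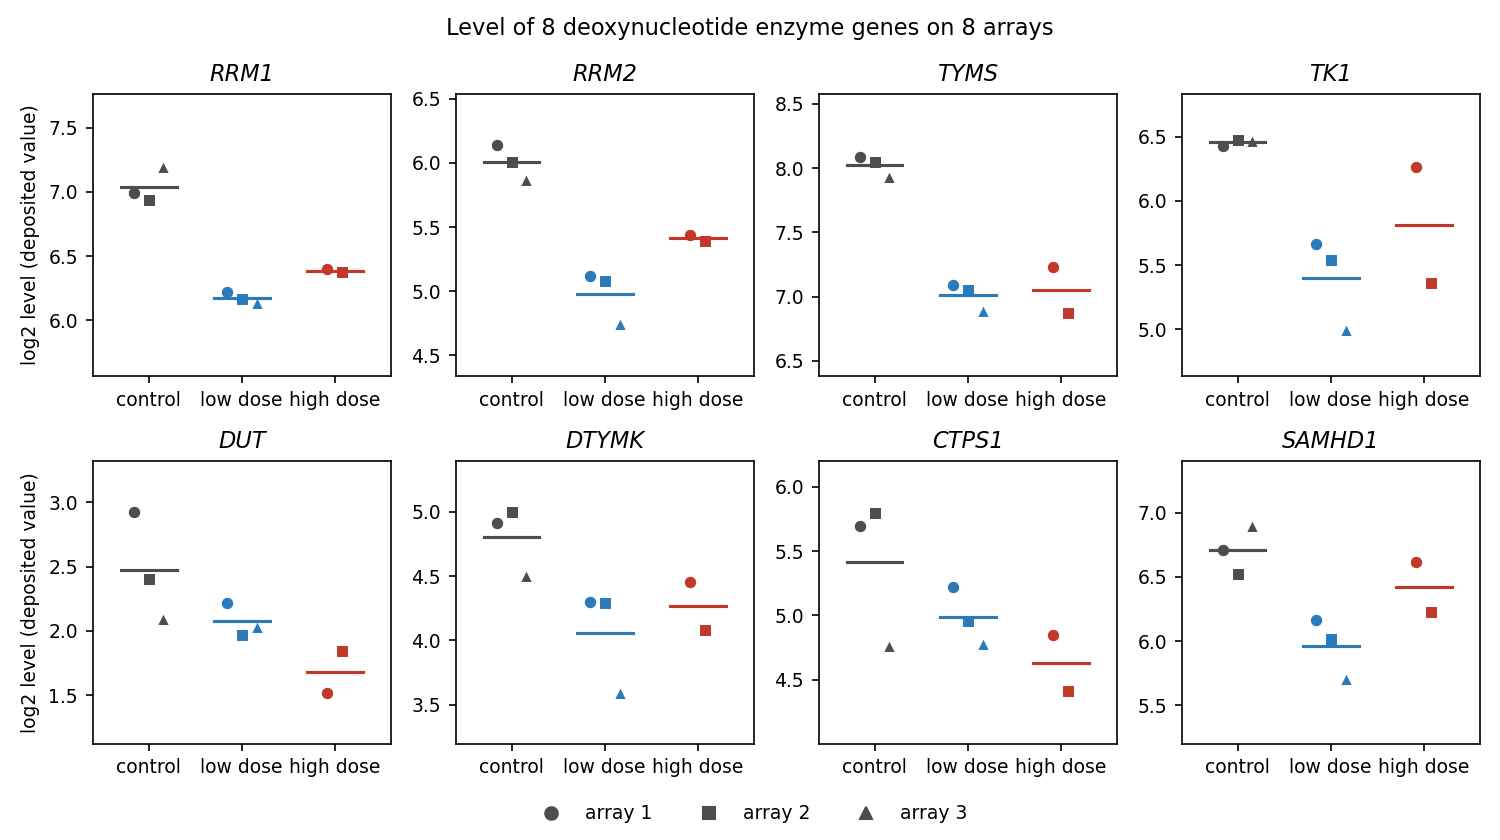
Deposited log2 level (vertical axis, a span of 2.2 in every panel) of the 8 measured genes on each array, by group (horizontal axis), where marker shapes give the replicate number and lines the group means. RRM1, RRM2, TYMS, TK1, DTYMK and SAMHD1 lie lower on all 3 low-dose arrays than on any control array, while DUT and CTPS1 overlap.

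RRM1 read 6.22, 6.16 and 6.14 on the low-dose arrays, against 6.99, 6.94 and 7.19 on the control arrays. The low-dose values lay close together, all below the lowest control. The difference was -0.87 ± 0.14 (SE; log2 scale; 3 against 3 arrays; limma adjusted p = 0.00898). RRM2, the subunit whose level follows the cell cycle most closely, read 5.12, 5.08 and 4.74 at the low dose, against 6.14, 6.01 and 5.86 in the controls. Here low 3 was the lowest of all arrays, and the groups did not overlap. RRM2 fell by 1.02 ± 0.16 on the log2 scale (limma adjusted p = 0.00691), a 2.03-fold difference. The RRM2 call was kept under all 19 alternative settings (limma adjusted p from 0.000199 to 0.0335), and that of RRM1 under 18 of 19, ending without low 2 (adjusted p = 0.0513 by limma).

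In the thymidylate branch, TYMS read 7.09, 7.05 and 6.89 in low-dose cells, against 8.09, 8.04 and 7.93 in control cells. Every low-dose value was below the lowest control, and both groups were tight. TYMS fell by 1.01 ± 0.16 (limma adjusted p = 0.00654), a 2.01-fold difference, and was called under all 19 alternative settings. TK1 read 5.66, 5.54 and 5.00 at the low dose, against 6.42, 6.48 and 6.46 in the controls. The controls were close to each other, whereas low 3 stood below the other treated arrays. TK1 had the largest estimate of the 8 genes, -1.06 ± 0.24, but a less secure call (limma adjusted p = 0.0415). That call ended when any 1 control or low-dose array was left out: the adjusted p by limma was 0.109, 0.112 and 0.0602 without control 1, 2 and 3, and 0.0679, 0.102 and 0.132 without low 1, 2 and 3. With all rows of the table tested, it was 0.143.

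DTYMK, the kinase after both TYMS and TK1, read 4.30, 4.29 and 3.59 on the low-dose arrays, against 4.91, 5.00 and 4.50 on the control arrays. The groups did not overlap, although low 1 and control 3 lay close together. Its difference was -0.74 ± 0.23 (limma adjusted p = 0.125). DUT read 2.22, 1.97 and 2.03 at the low dose, against 2.93, 2.40 and 2.09 in the controls, and the groups overlapped (-0.40 ± 0.21, limma adjusted p = 0.450). These are dim values, below the median of the tested genes on all arrays but control 1, and since the table holds no measure of background, a dim gene cannot be told from an absent one. CTPS1 read 5.22, 4.96 and 4.78 at the low dose, against 5.70, 5.79 and 4.76 in the controls. Control 3 lay below every low-dose array, and the difference of -0.43 ± 0.26 (limma adjusted p = 0.535) became -0.76 without it (adjusted p = 0.0622).

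SAMHD1, which consumes the products of the other enzymes, had values lower than control too. It read 6.16, 6.02 and 5.71 on the low-dose arrays, against 6.71, 6.52 and 6.90 on the control arrays. The groups did not overlap, and the estimate was -0.74 ± 0.18, just outside the threshold (limma adjusted p = 0.0584). Whether a control array and a low-dose array with the same replicate number belong together was not settled by the check described with the processing. Fits that use the replicate number as a block assume that they do. With the number as a block over all 8 arrays, both SAMHD1 (limma adjusted p = 0.0406) and DTYMK (limma adjusted p = 0.0251) were called, which made 6 of 8. With the block over the control and low-dose arrays alone, DTYMK was called (limma adjusted p = 0.0465) and SAMHD1 was not (limma adjusted p = 0.0900), which made 5 of 8. Of all 22109 genes, 576 were called lower with the first block and 310 with the second, against 400 with no block. Over all 19 alternative settings, SAMHD1 and DTYMK were each called in 5, with limma adjusted p from 0.0139 to 0.161 for SAMHD1 and from 0.0112 to 0.308 for DTYMK. SAMHD1 was also called under quantile normalization (0.0237), a common median (0.0430), the dim filter (0.0336) and array weights (0.0139). DTYMK was also called under quantile normalization (0.0283), array weights (0.0112) and without control 3, low 3 and high 2 together (0.0262). Without low 2 the count of called genes was 2 of 8, and leaving out any other control or low-dose array gave 3. Of all genes, 170 were called lower without low 2, and 188 to 408 without 1 of those other arrays.

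At the high dose the 8 estimates were again all below 0, as were those of 14897 of all 22109 genes. Of the 8, only TYMS was called, as lower. Thymidylate synthase had 7.23 and 6.87 on the high-dose arrays, against 8.09, 8.04 and 7.93 on the control arrays, and the groups did not overlap. The difference was -0.97 ± 0.17 (SE; log2 scale; 2 against 3 arrays; limma adjusted p = 0.0328), a 1.96-fold difference. So 1 of 8 was called, where 0.389% of all genes were called lower and 0.425% higher (0.814% together). The median over the 8 was -0.65, against -0.12 over all genes tested and -0.24 over the 8309 genes that passed the dim filter. In 6 of the 8 both high-dose arrays lay below all controls, but so they did in 22.9% of all genes (above all controls in 7.07%). Of the 2 high-dose arrays, high 2 had the lower upper quartile. At an unadjusted p under 0.05, 6 of the 8 were lower, against 11.4% of all genes lower and 3.03% higher. The TYMS call ended under 8 of 18 alternative settings, among them leaving out control 1 (adjusted p = 0.127), control 2 (0.118), low 1 (0.0657), low 2 (0.0713), high 1 (0.0915) or high 2 (0.269), by limma. Without control 3 the count was 3 of 8, with CTPS1 (limma adjusted p = 0.0154) and DUT (limma adjusted p = 0.0281) joining TYMS. Calls rose over all genes too: of 22109, 740 were called lower without control 3, against 86 with all arrays.

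The reductase subunits lay close together on the high-dose arrays. RRM1 read 6.40 and 6.37, against 6.99, 6.94 and 7.19 in the controls, a difference of -0.65 ± 0.16 (limma adjusted p = 0.102). RRM2 read 5.43 and 5.39, against 6.14, 6.01 and 5.86 in the controls, a difference of -0.59 ± 0.18 (limma adjusted p = 0.169). For both subunits the high-dose arrays were nearly equal, and neither group overlapped the controls, yet the test across all genes was not passed. TK1 behaved otherwise: it read 6.27 on high 1 and 5.36 on high 2, against 6.42, 6.48 and 6.46 in the controls. The 2 treated arrays differed by more than the estimate, -0.64 ± 0.27 (limma adjusted p = 0.305), which was -0.19 without high 2 and -1.09 without high 1.

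DTYMK read 4.45 and 4.08 at the high dose, against 4.91, 5.00 and 4.50 in the controls (-0.54 ± 0.25, limma adjusted p = 0.358). DUT read 1.52 and 1.84, against 2.93, 2.40 and 2.09 in the controls, without overlap (-0.79 ± 0.24, limma adjusted p = 0.165). CTPS1 read 4.85 and 4.41, against 5.70, 5.79 and 4.76 in the controls, and control 3 fell between the treated arrays (-0.79 ± 0.29, limma adjusted p = 0.253). SAMHD1 read 6.62 and 6.22, against 6.71, 6.52 and 6.90 in the controls. High 1 lay inside the control range, and SAMHD1 had the smallest estimate of the 8, -0.29 ± 0.21 (95% interval -0.74 to 0.17, limma adjusted p = 0.558). Quantile normalization moved the median of all genes in this comparison to -0.02 and the estimates of the 8 genes with it, to -0.78 for TYMS and -0.08 for SAMHD1.

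**Figure D2:**
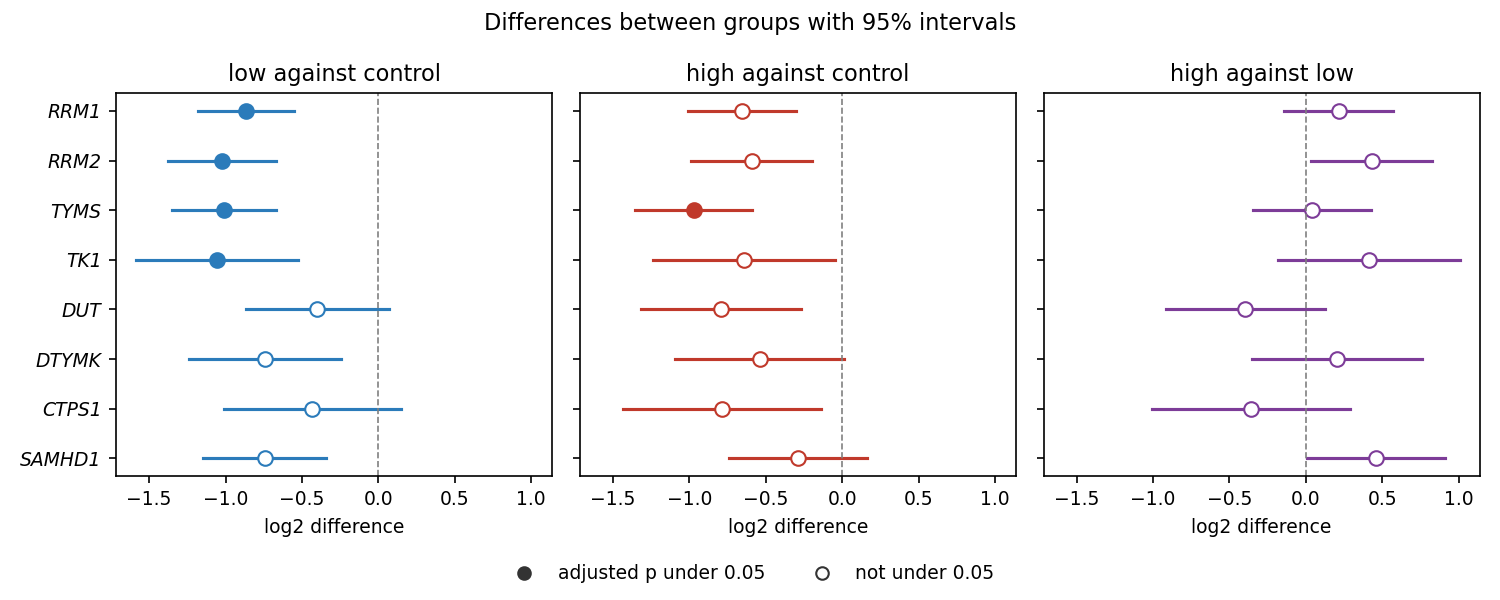
Log2 difference between groups (horizontal axis) for each gene (vertical axis) in the 3 comparisons, with 95% intervals of the fit across all genes, unadjusted for the number of genes. Filled points passed the adjusted p of 0.05: RRM1, RRM2, TYMS and TK1 at the low dose, TYMS at the high dose and none between the doses.

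Both doses were compared with the same 3 controls, so the contrasts against control are not independent. The direct comparison of high with low dose shows where the treated groups differ, whether or not they form a dose series. None of the 8 genes was called there by limma, where 0.00452% of all genes were called higher and none lower; 2 of the 8 had an unadjusted p under 0.05, both higher, beside 2.56% of all genes higher and 6.10% lower. RRM2 read 5.43 and 5.39 at the high dose, against 5.12, 5.08 and 4.74 at the low dose, without overlap. Its difference was 0.43 (95% interval 0.04 to 0.83, limma adjusted p = 0.545). SAMHD1 read 6.62 and 6.22 at the high dose, against 6.16, 6.02 and 5.71 at the low dose, again without overlap (0.46, interval 0.01 to 0.91, adjusted p = 0.572). RRM1 was higher on both high-dose arrays than on any low-dose array by a small margin (0.21, interval -0.14 to 0.57). These were 3 of 8 genes, beside 8.77% of all genes whose high-dose arrays all lay above the low-dose arrays. DUT was the 1 gene of the 8 that lay wholly the other way (-0.40, interval -0.92 to 0.13), as did 16.7% of all genes. For TYMS the estimate was 0.04 with an interval from -0.34 to 0.42. The intervals were wide for TK1 (-0.18 to 1.01), DTYMK (-0.35 to 0.76) and CTPS1 (-1.005 to 0.29), and each included 0.

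Across the 8 arrays, the 28 pairs of the 8 enzymes had Pearson correlations of 0.24 to 0.94. The highest were those of RRM1 with TYMS (0.94), TK1 with SAMHD1 (0.94) and RRM1 with RRM2 (0.92). The 7 pairs with DUT had correlations of 0.24 to 0.78. These values describe 8 points in 3 groups that share arrays and normalization. Among 7576 genes with an SD of at least 0.3 over the arrays, the profiles most like that of RRM2 were those of ZWINT (r = 0.99), CDC7 (0.99), H2AC21 (0.99), RPL22L1 (0.98) and KIF18B (0.98). Those most like SAMHD1 were FOXM1, POC5, KIF4A, EED and CEP295, all at 0.99, also over 8 arrays.

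S phase and proliferation genes changed in the same comparisons. Of 10 such genes 8 were called lower at the low dose (median -1.19), against 1.81% of all genes, among them CCNA2, which encodes cyclin A2 (-1.70 ± 0.20), CCNE2, which encodes cyclin E2 (-1.29 ± 0.16), the proliferation antigen gene MKI67 (-1.22 ± 0.16) and the replication clamp gene PCNA (-0.999 ± 0.143), with limma adjusted p from 0.00233 to 0.00466. At the high dose 4 of the 10 were called lower (median -0.82), against 0.389% of all genes: CCNE2 (-1.20 ± 0.18), the helicase subunit gene MCM6 (-1.32 ± 0.20), the helicase loader gene CDC6 (-1.37 ± 0.24) and PCNA (-0.82 ± 0.16), with limma adjusted p from 0.0163 to 0.0444. The mean log2 level of the 10 genes was 6.35 and 6.08 on the high-dose arrays, 5.98, 5.98 and 5.64 on the low-dose arrays and 7.06, 7.05 and 7.10 on the control arrays. The mean over the 8 deoxynucleotide genes was 5.35 and 5.07, 5.25, 5.13 and 4.86, and 5.98, 5.90 and 5.71 in the same order of groups. The part of this shift in the results for the 8 enzymes was not tested. In RNA from whole cultures, fewer cells in S phase and less RNA of these genes per cell cannot be told apart.

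Around the 8 enzymes, 45 of 53 listed genes of nucleotide metabolism were measured. Of these 2 were called lower at the low dose and none higher, and none was called in either direction at the high dose by limma, where 0.389% of all genes were called lower. At an unadjusted p under 0.05, 18 of the 45 were lower and 1 higher at the high dose, against 11.4% and 3.03% of all genes, and 12 were lower and 4 higher at the low dose, against 8.77% and 5.38%. The 2 called genes were SHMT1, the cytosolic serine hydroxymethyltransferase that charges folate for thymidylate synthesis, and PRPS2, which makes the ribose phosphate precursor of purines. SHMT1 read 3.80, 3.55 and 3.26 at the low dose and lay below its control arrays throughout (-0.77 ± 0.17, limma adjusted p = 0.0376). PRPS2 read 7.01, 7.00 and 6.66 at the low dose, also below all controls (-0.68 ± 0.15, limma adjusted p = 0.0393). These 2 of 45 stand beside 1.81% of all genes called lower at the low dose.

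By group, there were few or no calls. All 11 measured genes of de novo purine synthesis had estimates below 0 in both contrasts, with a median of -0.69 at the high dose and -0.51 at the low dose. Of all 22109 genes, 14897 had estimates below 0 at the high dose and 12700 at the low dose. The 4 genes of de novo pyrimidine synthesis (CAD, DHODH, UMPS and CTPS2) had medians of -0.72 and -0.44, and the 4 of the thymidylate and folate cycle -0.55 and -0.57. The proteins that work with ribonucleotide reductase, namely the alternative small subunit RRM2B and the electron donor system of TXN, TXNRD1, GLRX and GSR, had medians of 0.02 and 0.10 and no call. Other nucleoside and nucleotide kinases had medians of -0.34 and -0.21, enzymes of breakdown, deamination and pool cleaning -0.33 and -0.11, and nucleoside transporters -0.14 and 0.08, again with no call at either dose. Single estimates at the low dose ran from -0.32 to 0.17, -0.61 to 1.42 and -0.07 to 0.68 in these groups. Among the reductase partners they ran from -0.26 to 0.76. Over the partners, other kinases, breakdown enzymes and transporters, 3 genes were lower and 1 higher at the high dose at an unadjusted p under 0.05, and 1 was lower and 4 higher at the low dose. In purine synthesis alone, 10 of 11 were lower at the high dose and 7 of 11 at the low dose by that measure. Over all genes, 11.4% were lower and 3.03% higher at the high dose by it, and 8.77% and 5.38% at the low dose. The median of all genes tested was -0.12 and -0.04, and that of the 8309 genes that passed the dim filter -0.24 and -0.08.

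**Figure D3:**
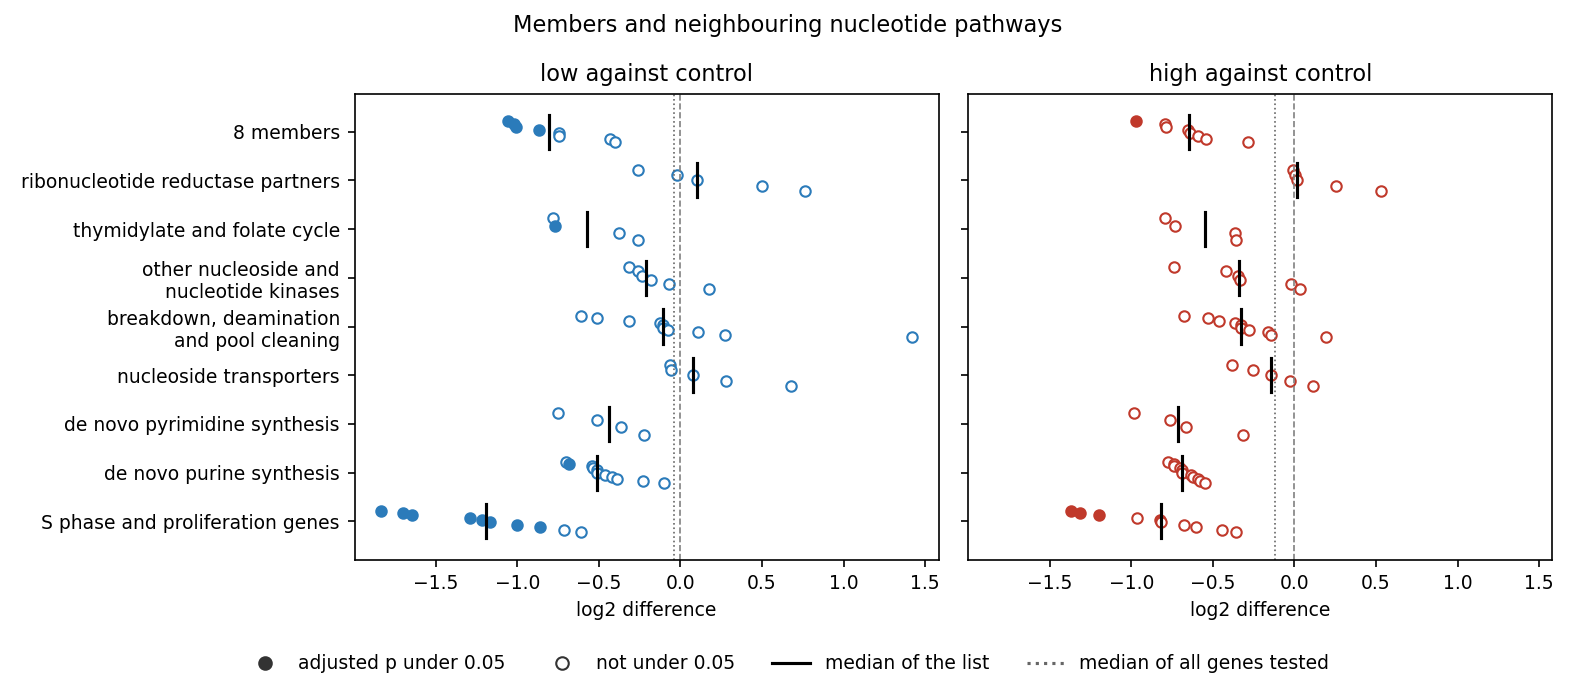
Log2 difference from control (horizontal axis) at the low dose and at the high dose for the 8 deoxynucleotide enzymes, 7 neighbouring groups of nucleotide metabolism and 10 S phase and proliferation genes (vertical axis). Each point is a gene, filled where the adjusted p was under 0.05; black bars are group medians, which reach -0.81 and -0.65 for the 8 enzymes and 0.10 and 0.02 for the reductase partners.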

How the data were processed

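The deposited table holds log2 expression values of 53617 probe sets on 8 Affymetrix Human Gene 2.1 ST arrays. The submitters' processing notes name the Transcriptome Analysis Console; neither its version nor how probe sets were summarized and normalized is given in those notes. The deposited values run from -0.00 to 12.10, a maximum above what natural or common logs of 16-bit intensities reach, so they were read as base 2. Values were used as deposited. Rows were named through the platform annotation, and only the 23558 rows with 1 symbol were used, the row with the highest mean being kept for 618 genes with several, which left 22109 genes. Each of the 8 measured genes had 1 row.

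Group means were fitted with limma 3.58.1 (R 4.3.3) to the 8 arrays together (5 residual and 6 prior degrees of freedom) with no filter. Benjamini-Hochberg adjustment ran over all genes, and calls needed an adjusted p under 0.05. Fits were tested on simulated data. Deviations from group means of same-numbered control and low-dose arrays correlated at 0.10 to 0.20, which was taken as pairing. Differently numbered ones ran from -0.18 to 0.12, so the ranges overlapped and pairing is not settled. For same-numbered control and high-dose arrays the values were 0.09 and -0.05, which was not taken as pairing. The deviations of the 2 high-dose arrays mirror each other (r = -1), so there the check cannot decide. Alternatives were 18 settings and 1 chosen after seeing the data (the block over control and low-dose arrays alone). Leaving out control 3, low 3 and high 2 together, 1 of the 18, also depends on the data. These arrays had the lowest upper quartiles of their groups. The genes and lists were chosen with earlier results of these data known. All measured enzymes are named. Other genes are named where called, up to 4 per list and comparison by smallest adjusted p, or as the 5 profiles most like RRM2 and SAMHD1. Promoter sequences come from RefSeq; the regions shown were chosen after the calls.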

Additional observations from a re-analysis of the deposited data

How the results depend on the processing

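The low-dose calls of RRM2 and TYMS held under all 19 alternative settings; none was lost by leaving out an array. Over all settings, 391 of 437 alternative estimates for single enzymes kept direction and side of the threshold, 23 passed it newly, 16 no longer passed and 7 reversed. With 180 genes called at the high dose against control as deposited, quantile normalization gave 462 (70.8% higher, against 52.2%), a common median 283 (63.3% higher), 73 with all rows of the file, array weights 1004, leaving out control 3, low 3 and high 2 together 1563, only the 2 groups compared 46, and leaving out single arrays 19 to 990. The enzymes called there were 1 as deposited, 0 with all rows or only the 2 groups, 4 with array weights or without those 3 arrays, and 0 to 3 without single arrays. At the low dose 664 genes became 1178 (quantile normalization; 52.7% higher, against 39.8%), 402 (all rows), 2055 (array weights), 1278 (without the 3 arrays) and 266 to 658 (single arrays), and the 4 enzymes became 7 with array weights and 2 to 4 without single arrays. For high against low dose, 1 gene became 2 (quantile normalization), 0 (dim filter), 0 (all rows), 69 (array weights), 220 (without the 3 arrays), 53 (only the 2 groups) and 0 to 174 (single arrays), with no enzyme called in any.

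With the replicate number as a block over all 8 arrays, 1059 genes were called at the low dose, 1228 at the high dose and 219 between the doses. The block called 4 enzymes at the high dose, where the check could not decide whether the numbers pair the arrays. For the control and low-dose arrays pairing is not settled either. The block over control and low-dose arrays alone called 601 genes.

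Estimates that reversed, none of them called, were SAMHD1 at the high dose without the 3 arrays (0.00527), and for high against low dose TYMS under the block (-0.0128) and array weights (-0.00250). Without single arrays, TYMS ran from -0.138 to 0.218, TK1 from -0.0385 to 0.865 and DTYMK from -0.0310 to 0.390. The cause of these shifts was not tested. The table gives no background measure, which limits DUT most; it was the 1 enzyme removed by a filter at log2 4 on 2 arrays.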
